A study of Mus musculus with 12 samples.

Results

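Ppy, Pyy and Npy encode pancreatic polypeptide, peptide YY and neuropeptide Y, the PP-fold peptides. They were followed by name in sorted mouse islet cells, as 3 of 31055 genes in the single-cell tables and 3 of 45808 in the bulk table. In the single-cell data Pyy was as abundant as Ppy in monohormonal Ppy+ cells, was intermediate in Sst+ cells, lower in Gcg+ cells and lowest in Ins2+ cells. Npy was found mainly in a few Ins2+ and Sst+ cells, and in 0 of 1495 monohormonal Ppy+ cells.

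The study labelled γ-cells, the islet cells that make pancreatic polypeptide, and asked what sets them apart from other islet cells. For single cells, Ppy-YFPi mice (Ppy-rtTA, TetO-Cre and R26-YFP on a mixed background) were given 1 mg/ml doxycycline (DOX) in their drinking water when 1 month old, for 2 weeks by the general methods, and their islet cells were sorted by FACS at 2 months into a YFP+ and a YFP- fraction, in 2 experiments. Only the ventral pancreas, of male and female mice, was used. The 4 libraries held 5982 cells with 10683494 to 18330975 UMIs (unique molecular identifiers, each standing for 1 captured mRNA molecule) per library. The bulk libraries were 5 of YFP+ γ-cells from mice of the same kind and 3 of YFP+ δ-cells from Sst-Cre; R26-YFP mice, also 2 months old, whose labels carry the same DOX treatment. In Ppy-YFPi mice rtTA stands in place of the coding sequence on one Ppy allele, so all their cells carried a single intact Ppy allele, while Sst-Cre mice kept both. Experiment 1 is the pair of libraries without a number in its labels. The single-cell experiments were independent, each with the islets of several mice pooled and then sorted into both fractions. For the bulk libraries the sources used here do not say whether those of a group came from separate animals, so their p-values measure the spread between these samples, which may in part be technical.

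The PP-fold peptides are short amidated hormones cut from related precursors, and they act through one family of G protein-coupled receptors, the Y receptors. Pancreatic polypeptide comes chiefly from islet γ-cells, which are most frequent in the part of the pancreas that derives from the ventral bud, and acts mainly on the Y4 receptor. Peptide YY is best known as an intestinal satiety hormone but is also made in islets, and neuropeptide Y is an abundant neurotransmitter of the brain and of sympathetic nerves.

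The kinship of the genes is visible in exon 2, which opens with the start codon in each. It is shown because a close match between the transcripts would blur which gene a read came from, and because exon 2 of Ppy is part of what rtTA replaced. The sequences are from RefSeq on GRCm38.p6, 5′ to 3′ on the coding strand, with the 76 bases that are identical in all 3 genes in capitals. Ppy lies at chr11:102100521-102100711 (minus strand), Pyy at chr11:102107165-102107352 (minus strand) and Npy at chr6:49823598-49823785 (plus strand).
Ppy exon 2: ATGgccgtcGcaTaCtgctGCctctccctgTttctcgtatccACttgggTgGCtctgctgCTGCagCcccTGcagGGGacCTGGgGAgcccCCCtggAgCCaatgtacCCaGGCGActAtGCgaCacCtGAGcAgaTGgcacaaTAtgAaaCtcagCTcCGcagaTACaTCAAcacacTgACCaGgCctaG
Pyy exon 2: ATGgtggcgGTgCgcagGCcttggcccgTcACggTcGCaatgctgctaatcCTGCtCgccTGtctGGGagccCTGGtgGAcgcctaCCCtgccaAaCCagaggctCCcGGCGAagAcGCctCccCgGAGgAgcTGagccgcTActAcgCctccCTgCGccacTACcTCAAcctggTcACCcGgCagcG
Npy exon 2: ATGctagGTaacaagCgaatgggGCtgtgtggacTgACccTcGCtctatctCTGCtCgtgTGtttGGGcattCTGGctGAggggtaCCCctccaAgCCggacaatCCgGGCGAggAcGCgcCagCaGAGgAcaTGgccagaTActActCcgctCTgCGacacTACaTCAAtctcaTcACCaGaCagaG
Exon 2 of Ppy matched that of Pyy at 61.7% of aligned bases and that of Npy at 63.6%, and Pyy matched Npy at 66.7%. The longest stretch shared by any pair of whole transcripts was 10 bases, much shorter than a read. No other annotated gene overlapped the exons of the members. Ppy (chr11:102099931-102101319) and Pyy (chr11:102106676-102107832) are neighbours on the same strand, 5356 bases apart, and Npy (chr6:49822710-49829507) lies on another chromosome. Whether the knocked-in allele also gives reads to Ppy, through the exons that were kept, is not stated in the sources used here.

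Across whole libraries, Ppy and Pyy were both high in the YFP+ fraction. Ppy made up 18.4 and 18.7% of the UMIs of the YFP+ libraries (experiment 1, then experiment 2), and 0.117 and 0.352% of those of the YFP- libraries. Since Ppy drives the label by which cells were sorted, this is a description and was not tested. Pyy took 18.4 and 21.6% in YFP+ libraries and 0.584 and 0.890% in YFP- libraries. Both YFP+ libraries stood far above both YFP- libraries, with a log2 fold change of 4.89 (SE 0.45, adjusted p = 8.14e-05, edgeR quasi-likelihood test with Benjamini-Hochberg adjustment, n = 2 against 2). Calls here needed an adjusted p no higher than 0.05 together with a natural-log fold above 0.5, and 20.1% of the 13620 genes tested met this, 5.05% of them higher in YFP+ libraries. The Pyy to Ppy ratio of UMIs was 0.999 and 1.16 in YFP+ libraries, against 5.01 and 2.53 in YFP- libraries. Npy gave 3 and 0 UMIs in YFP+ libraries but 253 and 64 in YFP- libraries, a ratio of 84.6 once set against all UMIs of each fraction (exact 95% interval 28.7 to 412, counting error only).

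To ask which cells carried these transcripts, cells were classed by hormone. Doublet calls and cells of 12 non-endocrine clusters were removed, and each remaining cell was scored for Ppy, Gcg, Ins2 and Sst above or below a threshold on the natural log of UMIs per 10000, at 3.08, 4.94, 6.19 and 3.22. This left 4453 cells, of which 4188 fell into 7 classes. Clusters were made without the hormone and PP-fold genes. The paper studied monohormonal cells only within the cluster of their hormone, and bihormonal Ppy+ cells only within a cluster of their own. That step was not taken here, so these classes may also hold cells that the paper left out. Markers of α-, β- and δ-cells were highest in the Gcg+, Ins2+ and Sst+ classes among the monohormonal classes for 4 of 5, 7 of 7 and 5 of 5 genes, with the α-marker Gc higher in Ppy+ cells. Class and sorted fraction went together, as 15 of 1495 monohormonal Ppy+ cells came from YFP- libraries, against 1410 of 1411 monohormonal Gcg+, Ins2+ or Sst+ cells. Barcodes in more than one library numbered 39.

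RNA that leaks from broken cells can enter any droplet, so both peptides were first measured in cells of non-endocrine clusters. In the YFP+ libraries of experiments 1 and 2, the cells of non-endocrine clusters held Ppy at 9.89 and 11.3% of their UMIs, and Pyy at 10.7 and 13.8%. In YFP- libraries the same clusters held Ppy at 0.0319 and 0.0447%, and Pyy at 0.0700 and 0.180%. A few cells carried much of these pooled values. Cluster 10, led by T-cell genes, gave 9 of the 42 and 21 of the 120 YFP+ cells and held Ppy at 17.1 and 18.7% and Pyy at 18.4 and 23.9%, and cluster 4 (35 YFP- cells) had the gut hormone genes Gip, Cck and Sct among its leading genes. Without clusters 4 and 10, an alternative chosen after seeing the data, Ppy was at 5.34 and 3.03% in YFP+ libraries against 0.0153 and 0.0459% in YFP- libraries, and Pyy at 5.86 and 2.35% against 0.0406 and 0.179%. In stromal cells, identified by collagen genes and Dcn, the YFP+ values were 2.57 and 1.07% for Ppy and 3.80 and 0.828% for Pyy. Stromal YFP- cells, 43 and 119 in number, held Ppy at 0.00765 and 0.0185% and Pyy at 0.0188 and 0.0324%. The background was thus higher in YFP+ libraries for both genes in each of these sets, but its level depended on the set. Background here means this signal whatever its source. Leaked RNA and doublets of a non-endocrine cell with a γ-cell were not told apart. The cell of lowest Ppy among the 42 and 120 non-endocrine cells of the YFP+ libraries still held 33.7 and 35.0 Ppy UMIs per 10000, which is above the Ppy threshold. A Ppy+ call near the threshold in a YFP+ library was therefore not distinct from background.

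**Figure D1:**
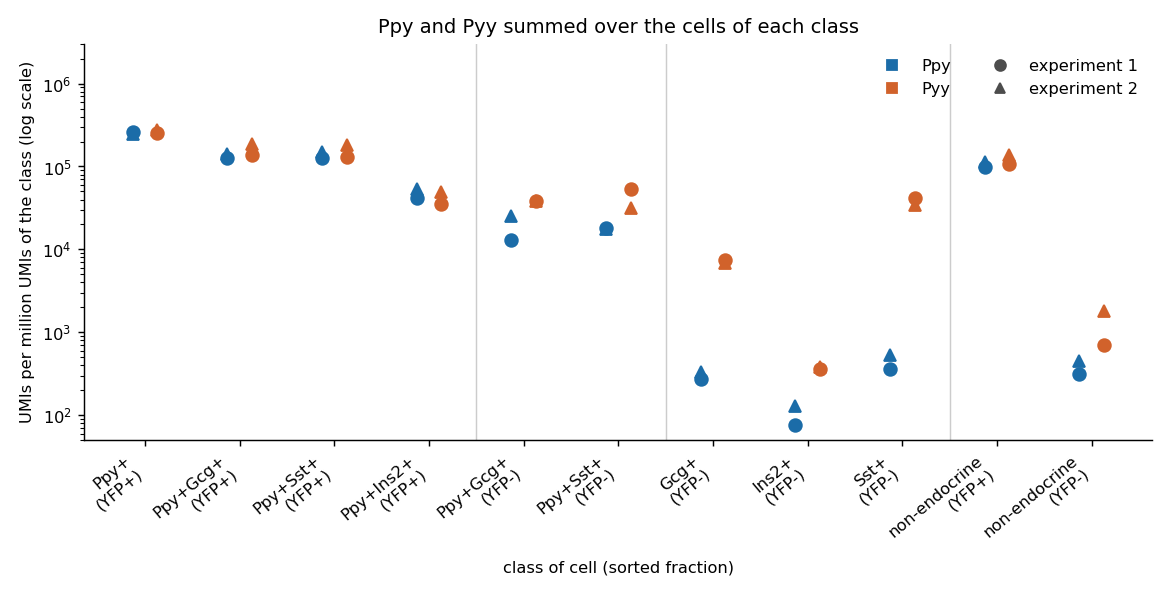
Level of Ppy (blue) and Pyy (orange), in CPM over the UMIs of each class of cell, by sorted fraction, on a log axis; circles are experiment 1 and triangles experiment 2, each summed over the cells of 1 class in 1 library. In Ppy+ cells the genes lay together near the top. In Gcg+ and Sst+ cells, which by rule lie under the Ppy threshold, Pyy lay far above Ppy. Non-endocrine cells show the background of each fraction.

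Ppy, the hormone that defines the class, took 26.1 and 24.9% of the UMIs of monohormonal Ppy+ cells in the YFP+ libraries of experiments 1 and 2. Pyy took 25.2 and 27.3% of the same cells' UMIs. Together the pair made up 51.4 and 52.2% of all their mRNA molecules counted, so every other gene shared the remainder. Over both fractions the mean level was 25.5% ± 0.878 (SD, n = 2 experiments) for Ppy and 26.3% ± 1.42 for Pyy. The order of the genes differed between the experiments.

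In the other monohormonal classes, which came from YFP- libraries, Pyy in Sst+ and Gcg+ cells stood above the 3 YFP- background levels just given, while Ppy was low. Sst+ cells held Ppy at 0.0362 and 0.0532% of UMIs in experiments 1 and 2, and Pyy at 4.12 and 3.40%. Gcg+ cells held Ppy at 0.0277 and 0.0335%, and Pyy at 0.747 and 0.692%. Sst+ and Gcg+ cells alike carried Pyy far above Ppy, by 114 and 63.9 times in Sst+ cells and by 26.9 and 20.6 times in Gcg+ cells. Only cells under the Ppy threshold enter these classes, so low Ppy is part of the rule and these ratios are descriptions. Cells above it fall in other classes. In YFP- libraries the ratio was 2.88 and 1.80 in Ppy+Sst+ cells, and 2.96 and 1.55 in Ppy+Gcg+ cells. Ins2+ cells of the YFP- libraries held Ppy at 0.00754 and 0.0130% and Pyy at 0.0362 and 0.0378%, both below the pooled non-endocrine cells of the same libraries. Set against stromal cells instead, Ppy was at 0.00754 and 0.0130% against 0.00765 and 0.0185%, and Pyy, at 0.0362 and 0.0378%, was higher than the 0.0188 and 0.0324% there. This excess of Pyy was not shared by both main clusters of Ins2+ cells, as given below. Ppy in Gcg+ and Sst+ cells was likewise above its stromal level. Pooled non-endocrine cells of the same libraries held Ppy at 0.0319 and 0.0447%, below Sst+ cells but above Gcg+ cells in both experiments. In the smaller non-endocrine set chosen after seeing the data, Ppy was at 0.0153 and 0.0459%. That was below Sst+ cells in both experiments, but above Gcg+ cells in experiment 2. Ppy in Gcg+ cells was thus not above each background level.

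Pyy set the 4 monohormonal classes in one order, Ppy+ above Sst+ above Gcg+ above Ins2+, in which each neighbour differed from the next beyond the spread between experiments. Its mean level was 26.3% ± 1.42 in Ppy+ cells, 3.76% ± 0.513 in Sst+ cells, 0.720% ± 0.0392 in Gcg+ cells and 0.0371% ± 0.000930 in Ins2+ cells (SD, n = 2 experiments). Tests were run with edgeR on UMIs summed per class and experiment, over 10594 genes, with the experiment as a block and the same rule for calls. Against Sst+ cells, Pyy was higher in Ppy+ cells by 3.60 on the log2 scale (SE 0.20, adjusted p = 1.44e-16), where 11.2% of all genes tested were called. Against Gcg+ cells it was higher by 5.55 (SE 0.22, adjusted p = 3.21e-21), with 12.1% of all genes called. Against Ins2+ cells it was higher by 8.83 (SE 0.26, adjusted p = 7.47e-26), with 25.7% called.

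The steps between the lower classes were tested too, and these compare cells of the same fraction. Pyy was higher in Sst+ than in Gcg+ cells by 1.95 on the log2 scale (SE 0.19, adjusted p = 3.05e-10, 11.7% of genes called). It was higher in Sst+ than in Ins2+ cells by 5.23 (SE 0.22, adjusted p = 2.09e-20, 15.3% called). Gcg+ cells exceeded Ins2+ cells by 3.28 (SE 0.20, adjusted p = 6.93e-16, 22.3% called). The comparisons with Ppy+ cells set YFP+ against YFP- libraries, whose backgrounds differed as given above, and class and library cannot be told apart there apart from the few Ppy+ cells of YFP- libraries. Each class was then summed per library, with the library as the block. The 14 Ppy+ cells of the YFP- library of experiment 2 formed their own sum (the 1 of experiment 1 was under the minimum of 10 cells). Pyy in Ppy+ cells was higher than in Gcg+, Ins2+ and Sst+ cells by 4.32, 7.62 and 2.37, and each difference was still called. These values rest on that sum and on library differences to which the bihormonal classes also contribute. Within that library, Pyy took 23.7% of UMIs in the 14 Ppy+ cells, against 0.692, 0.0378 and 3.40% in Gcg+, Ins2+ and Sst+ cells.

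The 14 monohormonal Ppy+ cells of the YFP- library of experiment 2 give a view of Pyy at low background. Their median was 2476 Pyy UMIs per 10000, with a lowest cell at 793 and a highest at 3466. The 785 Ppy+ cells of the YFP+ library of the same experiment had a median of 2561, and non-endocrine cells of the YFP- library a median of 3.40. The Ppy+ cells sorted as YFP- thus held Pyy in the range of the sorted ones and well above their own library's background. The YFP- library of experiment 1 had 1 such cell, at 3480.

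Cell by cell, Pyy was detected throughout the Ppy+ class and varied widely within it. The median was 2239 UMIs per 10000 among 695 cells of experiment 1 and 2561 among 785 cells of experiment 2. The lowest cells stood at 27.4 and 82.8, within the range of the background, and 634 and 725 cells held over 1000. Each of these cells had a Pyy UMI, as did each Sst+ cell. So did each of the 42 and 120 non-endocrine cells of the YFP+ libraries, so a UMI alone does not set Ppy+ cells apart there.

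Sst+ cells all held a Pyy UMI, at lower levels. Their medians were 398 and 271 UMIs per 10000, in 116 and 126 cells, and the lowest cell in each experiment was at 79.9 and 42.2. The lowest Sst+ cell thus stood above the median of the non-endocrine cells of the same libraries, at 0.925 and 3.40. That median is not the upper end of the background. Non-endocrine cluster 16 held Pyy at a pooled 0.541% of UMIs in 88 YFP- cells of experiment 2, above the lowest Sst+ cell there. Gcg+ cells had medians of 36.6 and 38.6, with quartiles from 13.2 to 74.9 and from 14.3 to 80.7. Gcg+ cells spread further, from cells without a UMI to 607 and 584.

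The share of cells with a Pyy UMI was higher in Gcg+ cells than in each YFP- background set. Of Gcg+ cells, 98.1% (exact 95% interval 95.9 to 99.3) and 97.6% (95.3 to 99.0) held a Pyy UMI, at median depths of 7738 and 6333.5 UMIs. Of non-endocrine YFP- cells, 55.2% (50.1 to 60.3) and 71.9% (68.7 to 74.9) did, at 4818 and 3174 UMIs. After each cell was thinned to 1000 UMIs, the shares were 83.1 and 86.1% in Gcg+ cells against 18.8 and 35.9% in non-endocrine cells. Ins2+ cells, with median depths of 23879 and 12395 UMIs, held a Pyy UMI in 94.0 and 92.1% of cells, but in 18.5 and 30.3% once thinned. Stromal YFP- cells gave 23.3 and 25.2% when thinned (exact 95% intervals 11.8 to 38.6 and 17.7 to 34.0), and non-endocrine cells without clusters 4 and 10 gave 18.1 and 34.7%. The thinned share of Ins2+ cells, taken as a whole, thus lay within the range of the background sets. Unthinned, stromal YFP- cells gave 46.5 and 52.9%, at median depths of 3013 and 2434 UMIs. Thinning takes more UMIs from deeper cells, those of leaked RNA among them. Similar thinned shares therefore cannot place Ins2+ cells at the background. Intervals and floors cover counting error only.

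What Pyy there was in Ins2+ cells was uneven between their clusters. In experiment 1, cluster 5, led by Defb1, Gast and Iapp, held Pyy at 0.224% of UMIs in 74 cells, while cluster 6, led by the mature β-cell genes G6pc2, Mafa and Ucn3, held it at 0.0133% in 360 cells. In experiment 2 the values were 0.0722% in 30 cells and 0.0249% in 59 cells. Cluster 5 was above cluster 6 in both experiments. Cluster 6 was below each YFP- background level given above, of which the stromal one, at 0.0188 and 0.0324%, was lowest. Cluster 5 was above the stromal level in both experiments. It was above the pooled non-endocrine level, at 0.0700 and 0.180%, in experiment 1 only. With 1 sum per cluster and experiment these differences were not tested.

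**Figure D2:**
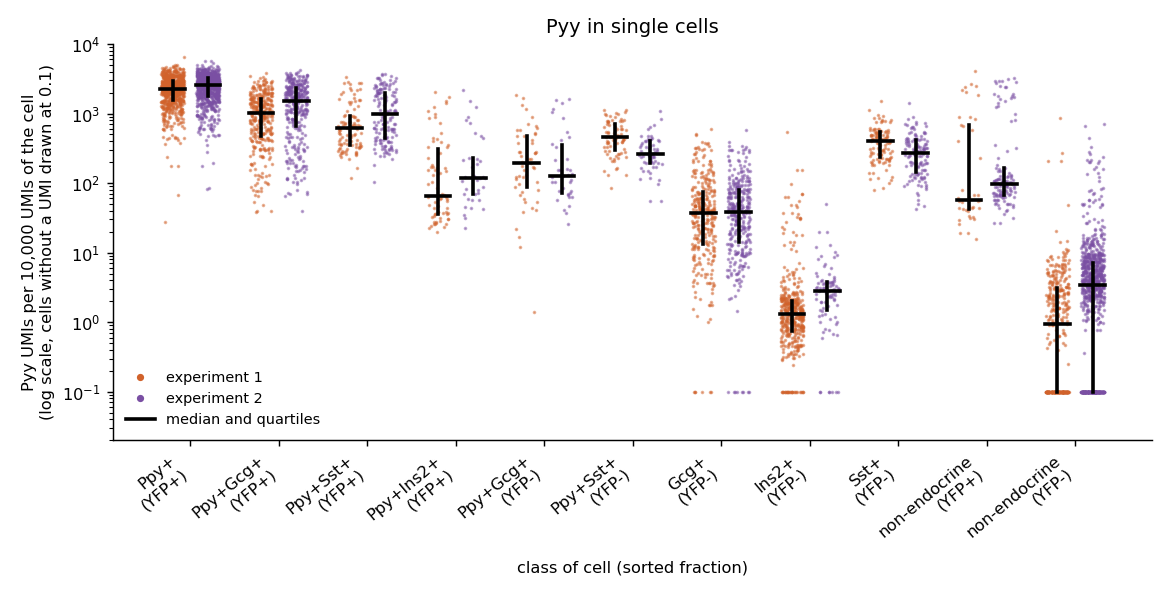
Pyy UMIs per 10000 UMIs of each cell (log axis, cells without a UMI drawn at 0.1), by class and sorted fraction; each point is a cell, orange for experiment 1 and purple for experiment 2, with bars for the median and quartiles. No Ppy+ or Sst+ cell was at 0, nor was any non-endocrine cell of the YFP+ fraction. Ins2+ cells overlapped the non-endocrine cells of the YFP- fraction.

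Bihormonal cells, classed here by thresholds and not kept to a cluster of their own, held less Pyy than monohormonal Ppy+ cells. Cells with Ppy and Gcg were lower by a log2 fold change of -1.12 (SE 0.18, adjusted p = 6.94e-05), with 2.52% of genes called. Cells with Ppy and Sst stood at -1.61 (SE 0.19, adjusted p = 3.68e-08), with 7.28% called. Cells with Ppy and Ins2 stood at -2.72 (SE 0.19, adjusted p = 2.37e-13), with 6.31% called. In YFP+ libraries alone, where the background is shared, the values were -0.99, -1.30 and -2.70, all still called. There, 2615 of the 2616 retained cells passed the Ppy threshold. A cell with another hormone could thus enter these classes through background Ppy. Ppy+Gcg+ cells numbered 393 and 371 over both fractions with or without doublet removal, so doublets may remain among them. How far either lowered Pyy was not tested.

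Within the YFP+ fraction, the level of Pyy in bihormonal cells followed that of Ppy. Ppy+Gcg+ cells held Ppy at 12.6 and 14.1% of UMIs and Pyy at 13.7 and 18.6%. Ppy+Sst+ cells held Ppy at 12.5 and 15.05% and Pyy at 13.1 and 18.4%. Ppy+Ins2+ cells held Ppy at 4.16 and 5.36% and Pyy at 3.52 and 4.87%. Pyy was thus slightly above Ppy in the first pair of classes and slightly below it in the last, in both experiments. The median Ppy+Ins2+ cell held 65.1 and 120 Pyy UMIs per 10000, against 56.7 and 97.9 in non-endocrine cells of the same libraries, so the median cell of that class was close to the median non-endocrine cell.

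Bihormonal cells of the YFP- fraction looked different, with much less Ppy. Ppy+Gcg+ cells held Ppy at 1.31 and 2.51% of UMIs and Pyy at 3.88 and 3.89%, in 53 and 38 cells. Ppy+Sst+ cells held Ppy at 1.83 and 1.76% and Pyy at 5.28 and 3.18%, in 78 and 62 cells. The Pyy of the latter was near that of Sst+ cells without Ppy, at 4.12 and 3.40%. Fraction is sorted on the activity of the Ppy promoter, so no test was made between fractions for these classes.

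The per-cell relation of Ppy to Pyy was described on levels per 10000 other UMIs, leaving both genes out of the denominator, because each takes so large a share that one must fall in the total as the other rises. Among monohormonal Ppy+ cells of YFP+ libraries, Spearman's rho was 0.357 over 695 cells and 0.346 over 785 cells. Cells with more Ppy thus tended to hold more Pyy. Per 10000 of all UMIs the sign turned, to -0.247 in both experiments. With denominators from separate gene sets, an alternative chosen after seeing the data, rho was 0.331 and 0.324. Both sets were counted in the same cell, so these denominators can still vary together. The points share a library, its background and its capture, and levels rose with the depth of the cell, with rho of 0.345 and 0.343 for Ppy and 0.616 and 0.516 for Pyy. After thinning to 1000 UMIs rho was 0.356 and 0.338. Thinning keeps the expected level of each cell per other UMI, so it cannot show the part of depth in the relation. That part was not tested.

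In 4 equal bins of Ppy+ cells ordered by Ppy, median Pyy climbed from 3351 to 4220, 5251 and 5388 per 10000 other UMIs in experiment 1. In experiment 2 the medians were 3881, 4840, 5691 and 6506. The lowest bin had an interquartile range of 1793 to 5177 and the highest of 3748 to 7904 in experiment 1, so single cells overlapped widely between bins. As a share of both peptides' UMIs, Pyy had a median of 46.8% (5th to 95th percentile 21.3 to 69.5) and 51.7% (24.7 to 73.8) per Ppy+ cell. Ppy+ cells carried both peptides. In Sst+ and Gcg+ cells, which by rule lie under the Ppy threshold, the share of Pyy had medians of 99.6 and 98.9%, and 97.9 and 95.7%.

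The relation was tighter in bihormonal YFP+ cells. In Ppy+Gcg+ cells rho was 0.829 and 0.825, over 340 and 333 cells. In Ppy+Sst+ cells it was 0.681 and 0.871, over 102 and 156 cells, and in Ppy+Ins2+ cells 0.835 and 0.859, over 70 and 37 cells. These classes span levels from background to that of Ppy+ cells. In YFP- libraries rho was 0.512 and 0.670 in Ppy+Gcg+ cells, over 53 and 38 cells, and 0.319 and 0.172 in Ppy+Sst+ cells, over 78 and 62. In Gcg+ cells it was 0.285 and 0.229 and in Sst+ cells -0.06 and 0.18, both weak and over sparse Ppy counts.

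**Figure D3:**
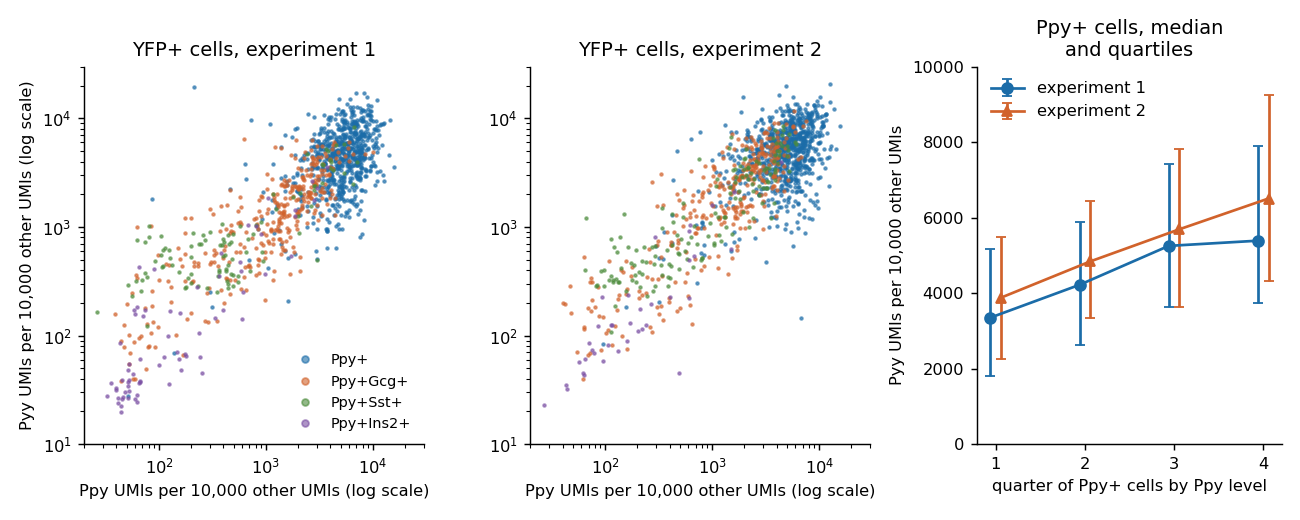
Left and middle, Pyy against Ppy in YFP+ cells of each experiment, as UMIs per 10000 other UMIs on log axes, with 1 point per cell coloured by class; right, median and quartiles of Pyy in 4 equal bins of monohormonal Ppy+ cells by Ppy level. Bihormonal cells trail down toward low values of both genes, and median Pyy was higher in the top bin of Ppy than in the bottom bin in both experiments.

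Npy, the neuropeptide of the family, was rare. In all, 42 of 5982 cells held an Npy UMI, with 320 UMIs between them. Among retained Ins2+ and Sst+ cells, 28 of 765 did, with 294 UMIs. Npy was therefore concentrated in few cells of those classes. It was not confined to cells under the Ppy threshold. Among Ppy+Sst+ cells, 1 of 258 YFP+ and 3 of 140 YFP- cells held it, with 12 UMIs in all. Ppy+Gcg+ cells gave 1 UMI, and cells with Ppy and 2 or 3 other hormones gave 3.

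In Ins2+ cells of YFP- libraries, 17 of 433 cells held Npy in experiment 1 (3.93%, exact 95% interval 2.30 to 6.21) and 2 of 89 in experiment 2 (2.25%, 0.273 to 7.88). They had 187 and 45 UMIs in all, of which the highest cells gave 56 and 35. Non-endocrine YFP- cells held it in 1 of 382 and 1 of 857 cells, or 0.262 and 0.117%, at lower depth (4818 and 3174 UMIs against 23879 and 12395). Thinned to 1000 UMIs, 0.924% (exact 95% interval 0.252 to 2.35) and 2.25% (0.273 to 7.88) of Ins2+ cells kept an Npy UMI. Of the non-endocrine cells 0 did (exact upper limits 0.961 and 0.430%), so the intervals overlapped in both experiments. All Ins2+ cells with Npy were in cluster 6, the one led by mature β-cell genes. Over both fractions that cluster held 360 of 434 and 59 of 89 Ins2+ cells. It was also deeper than cluster 5, with medians of 26125 and 13110 UMIs against 14998 and 10160.5. In none of the Ins2+ cells with Npy did Ppy reach more than 4 UMIs, though low Ppy is part of the class rule.

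In Sst+ cells, 8 of 116 held Npy in experiment 1 (6.90%, 3.02 to 13.1), with 55 UMIs, of which 1 cell gave 27. In experiment 2, 1 of 126 did (0.794%, 0.0201 to 4.34), with 7 UMIs. The intervals of the experiments overlapped, and cells of the class were deeper in experiment 1, with 4223.5 UMIs at the median against 2952. The part of depth was not tested. Per UMI counted, Npy stood at 109 CPM in Sst+ against 18.1 CPM in Ins2+ cells in experiment 1, but at 18.7 against 37.5 CPM in experiment 2, so the direction differed between the experiments. The log2 fold change of Sst+ against Ins2+ cells was 0.19 (SE 0.36, adjusted p = 0.798) and was not called, with values of 1.04 and -2.33 when experiment 2 or experiment 1 was left out.

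Ppy+ cells gave 0 Npy UMIs in 1495 cells, which for the 695 and 785 YFP+ cells leaves exact upper limits of 0.529 and 0.469% of cells with a UMI. Against a floor of 3 counts over the Ppy+ class, Npy stood 268-fold higher in Sst+ cells and 76.4-fold higher in Ins2+ cells, per UMI counted. With the counting error of the higher class (95%), the lower limits were 205 and 66.9. Both ratios set cells mostly of YFP- libraries against cells mostly of YFP+ libraries. Ppy and Pyy took 51.4 and 52.1% of the UMIs of Ppy+ cells, which lowers the floor. Per other UMI both ratios would be lower, and these were not computed. Gcg+ cells gave 1 UMI, so that Sst+ cells exceeded them by a ratio of 373 (exact 95% interval 64.5 to 14955) and Ins2+ cells by 106 (18.9 to 4223). The ratios to the floor count molecules of few cells: without the cell of most Npy in each class and experiment, chosen after seeing the data, they were 122 and 46.7. Without experiment 1 the ratio to the floor for Sst+ cells was 34.1, and without experiment 2 that for Ins2+ cells was 35.7.

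**Figure D4:**
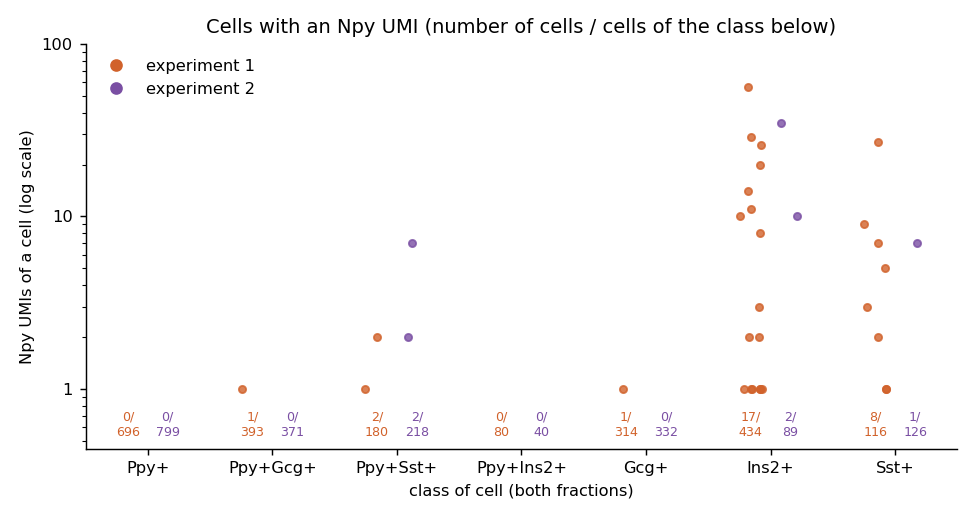
Npy UMIs of each cell that held any (log axis), by class, both fractions together, orange for experiment 1 and purple for experiment 2; the numbers give cells with Npy over cells of the class. Ins2+ and Sst+ cells carried up to 56 and 27 UMIs, and monohormonal Ppy+ cells carried none.

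Bulk libraries of sorted γ- and δ-cells gave a separate view of the same genes, in counts per gene. In γ-cell libraries 1 to 5, Ppy took 9.68, 8.82, 11.6, 11.6 and 8.74% of all counts. In δ-cell libraries 1 to 3 it took 1.09, 1.65 and 1.21%. The means were 10.1% ± 1.44 (SD, n = 5) and 1.32% ± 0.295 (SD, n = 3). Ppy drives the label of the γ-cells, so this difference is a description. In bulk, fewer cells of a type and less RNA per cell cannot be told apart.

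Pyy was also higher in γ-cells. It took 6.60, 7.62, 8.55, 8.60 and 8.60% of counts in γ-cell libraries and 1.43, 2.16 and 1.98% in δ-cell libraries. The means were 7.99% ± 0.883 (SD, n = 5) and 1.86% ± 0.380 (SD, n = 3). The log2 fold change was 2.37 (SE 0.26, adjusted p = 3.00e-05, edgeR), where calls needed an adjusted p no higher than 0.05 and a log2 change of 1 or more, and 35.0% of the 17926 genes tested were called. Genotype, read layout and sequencer went together with cell type, so their parts cannot be told apart. Other hormones were present in each group, as Gcg took 6.49% ± 1.60 of counts in γ-cells against 0.347% ± 0.281 in δ-cells, and Sst 0.896% ± 0.161 against 8.60% ± 1.57.

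Per kilobase of exon, the Pyy to Ppy ratio was below 1 in γ-cells and above 1 in δ-cells. It was 0.635 ± 0.0967 (SD, n = 5, range 0.540 to 0.780) in γ-cells and 1.12 ± 0.144 (SD, n = 3, range 1.04 to 1.29) in δ-cells. The δ-cell libraries thus held the peptides at similar levels per length, while single Sst+ cells held Pyy above Ppy by 63.9 times or more in UMIs. These are unlike sets of cells. Bulk δ-cells were sorted by the Sst-Cre label whatever their Ppy, whereas the 242 Sst+ cells are those under the Ppy threshold. Over both fractions, the 398 Ppy+Sst+ cells held Pyy to Ppy at 1.19 and 1.23 in UMIs. By fraction the ratio was 1.05 and 1.22 in YFP+ libraries, but 2.88 and 1.80 in YFP- libraries. The δ-cell mice also kept both Ppy alleles. How far any of these made the difference was not tested.

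Npy was barely detected in bulk. The γ-cell libraries held 15, 0, 48, 13 and 27 Npy counts and the δ-cell libraries 13, 2 and 9. In CPM (counts scaled to equal library totals) these were 0 to 2.20 and 0.170 to 1.70, so the groups overlapped. The log2 fold change was 0.48 (SE 1.14, adjusted p = 0.750) and was not called, and its direction changed under other settings. The means were 0.906 CPM in δ-cells and 1.02 CPM in γ-cells. In single cells they were 63.7 ± 63.6 CPM in Sst+ cells (SD, n = 2 experiments) and 0 in Ppy+ cells. The excess of Npy in Sst+ over Ppy+ cells was thus not seen between bulk δ- and γ-cells, and why was not tested.

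**Figure D5:**
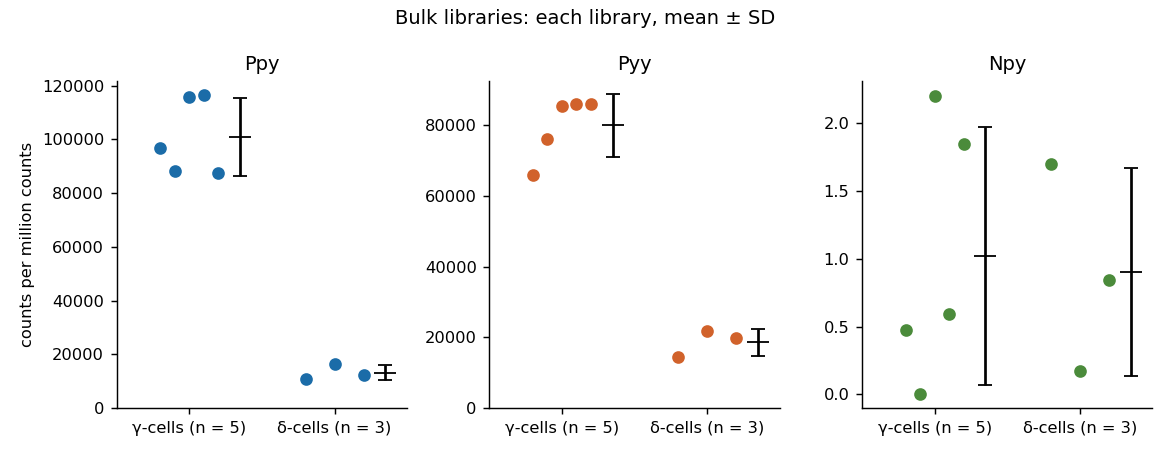
CPM of Ppy, Pyy and Npy in bulk libraries of γ-cells (n = 5) and δ-cells (n = 3), on linear axes that differ between panels; points are libraries, and the bars beside them the mean ± SD. Ppy and Pyy were higher in γ-cells than in δ-cells, and Npy did not exceed 2.20 CPM in any library.

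Genes that process or sense the peptides were read from a list of 12, of which 7 passed the filter on low counts in single cells and 8 in bulk. They are the Y receptor genes Npy1r, Npy2r, Npy4r, Npy5r and Npy6r, the convertases Pcsk1 and Pcsk2, their partners Pcsk1n and Scg5, the carboxypeptidase Cpe, the amidating enzyme Pam, and Dpp4, which trims mature peptides. No receptor gene passed the single-cell filter. In bulk, Npy2r alone did, at 0.315 ± 0.262 CPM in γ-cells (SD, n = 5) and 0.0627 ± 0.109 in δ-cells (SD, n = 3), and it was not called.

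In Ppy+ against Gcg+ cells, 1 of the 7 rose and 2 fell, beside 5.66 and 6.45% of all genes (median log2 fold change -0.47, against -0.01 over all genes). Pcsk1, the convertase that β-cells use, was higher by 4.03 (SE 0.42, adjusted p = 1.82e-09), while Pcsk1n, which encodes an inhibitor of it, stood at -1.07 (SE 0.13, adjusted p = 5.48e-08) and Dpp4 at -0.77 (SE 0.27, adjusted p = 0.0426). In Ppy+ against Ins2+ cells, 1 rose and 3 fell, beside 11.8 and 13.9% (median -0.33, against -0.01). Scg5 was at 0.81, Pcsk1 at -3.47, Dpp4 at -1.01 and Cpe at -0.74. In Ppy+ against Sst+ cells, 1 rose and 1 fell, beside 4.83 and 6.32% (median 0.18, against 0.02), with Scg5 at 1.31 and Dpp4 at -1.21. Pcsk1 thus stood between its levels in Gcg+ and Ins2+ cells, and Dpp4 was lower in Ppy+ cells in each of the 3 comparisons.

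The list was read in the other comparisons as well. In Sst+ against Gcg+ cells 1 rose and 4 fell, beside 6.28 and 5.42% of all genes, with Pcsk1 at 3.85. In Sst+ against Ins2+ cells 0 rose and 3 fell, beside 7.37 and 7.90%. In Gcg+ against Ins2+ cells 1 rose and 1 fell, beside 10.5 and 11.8%, with Pcsk1 at -7.50. The convertase Pcsk1 was among the called members in each of these 3. Against Ppy+ cells, Ppy+Gcg+ cells had 1 higher and 1 lower, beside 1.67 and 0.850%, with Pcsk1 at -1.87. Ppy+Sst+ cells had 0 higher and 1 lower, beside 5.05 and 2.23%, the lower one being Scg5 at -0.95. Ppy+Ins2+ cells had 1 higher and 0 lower, beside 4.32 and 1.98%, with Pcsk1 at 2.53. Scg5, a chaperone of Pcsk2, was the 1 member called higher in YFP+ than in YFP- libraries, at 1.04, and 0 were lower. Of all 13620 genes tested there, 688 were called higher and 2047 lower. In bulk γ- against δ-cells 3 of 8 rose and 0 fell, beside 20.7 and 14.2% (median 1.18, against -0.06 over all genes), with Cpe at 2.73, Pcsk1n at 6.02 and Scg5 at 2.10. For Pcsk1n and Cpe the bulk and single-cell values differed. Ppy+ against Sst+ cells gave 0.13 for Pcsk1n (adjusted p = 0.665, edgeR) and 0.42 for Cpe (adjusted p = 0.0304), and neither was called. Scg5 was called there too, at 1.31.

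Lastly, the genes most like each member were those with the highest Pearson correlation of log2(CPM + 1) over the 14 sums of 7 classes in 2 experiments, among 10594 genes. The 14 points share libraries and background, so these are descriptions. Ppy was most like YFP (r = 0.985) and rtTA (0.981), the reporter and the gene in the Ppy locus, and then Vsig1 (0.914). Pyy was most like Cd151 (0.957), Sdc4 (0.954) and Tmed10 (0.941). Npy was most like Prkag2 (0.860), Epb41l4a (0.856) and Gng12 (0.838), with Npy at 0 in several of the sums.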

How the data were processed

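The authors counted UMIs with Cell Ranger on a mouse reference with YFP and rtTA added, kept cells of at least 1000 UMIs, and deposited raw counts per gene and cell; the lowest cell here had 1001. For bulk libraries the authors aligned reads with STAR 2.7.2b on GRCm38.p6, counted them with HTSeq 0.9.1 and deposited raw counts per gene. The table's 6 columns of other cell types belong to no sample used here and were not used. Bulk totals were 14.6 to 31.8 M counts in γ-cells and 7.64 to 11.8 M in δ-cells. The members and lists were chosen with earlier results of these data known.

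Doublets were called with Scrublet (8 cells, 0.134%, too few for the caller to have worked) and a nearest-neighbour caller (120 cells), and 128 cells were removed. Clusters (20, of which 12 non-endocrine with 1401 cells) were made with scanpy 1.11.5. Named genes were Ppy, Pyy and Npy, the list of 12 processing and receptor genes, the class hormones and, per member, the 3 genes most correlated with it, predicted genes aside. Sums per class and experiment were tested with edgeR 4.0.16 (TMM, filterByExpr, quasi-likelihood, experiment as block), and bulk counts likewise with a mean count of at least 5 and no block. Numbers pair the single-cell libraries, since both fractions came from 1 experiment, and deviations of the YFP+ and YFP- sums correlated at 0.325. The tests were tested on simulated data. Alternatives covered doublets, thresholds, depth, filters, normalization, DESeq2 1.42.0, the block and each replicate left out. Calculations used R 4.3.3, Python 3.11.15, numpy 2.4.6, scipy 1.17.1 and pandas 2.3.3, sequences Biopython 1.88 and plots matplotlib 3.10.9.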

Additional observations from a re-analysis of the deposited data

Results flagged for a closer look

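Signal of both hormones appeared in cells outside the hormone classes, in clusters named or set aside as non-endocrine, at levels above those of the YFP- libraries. In YFP+ libraries Ppy took 9.89% of these cells' UMIs in experiment 1 and 11.3% in experiment 2, against 0.0319 and 0.0447% in YFP- libraries. Pyy took 10.7 and 13.8% in YFP+ libraries, against 0.0700 and 0.180% in YFP- libraries. Within them, cluster 10, led by T-cell genes, was high (Pyy 18.4 and 23.9% in 9 and 21 YFP+ cells), and stromal cluster 9 was low (Pyy 3.80 and 0.828% in 27 and 79 YFP+ cells). Without cluster 10 and cluster 4, an alternative chosen after seeing the data, the YFP+ values fell to 5.34 and 3.03% for Ppy and to 5.86 and 2.35% for Pyy, so a few cells carried much of the pooled signal.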

How the results depend on the processing

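Of 178 tested alternatives to reported values, 174 kept direction and call and 4 reversed. Of 74 without a test, 54 stayed within their standard error, counting interval or a factor of 1.5, 17 moved further and 3 reversed. All 148 tested alternatives for Pyy kept direction and call. Npy in Sst+ against Ins2+ cells turned to -0.32 with DESeq2 and ranged from -2.33 to 1.04 with an experiment left out. Bulk Npy was -0.62 with the replicate block, and -0.01 to 1.28 with a library left out (-0.012 without γ-cell library 3 and -0.012 without δ-cell library 2). The causes were not tested. The Ppy-Pyy relation turned to -0.247 in both experiments per 10000 of all UMIs, where the genes share the total, and was 0.788 and 0.713 over all Ppy+ cells, whose range is wider. With an experiment left out, Pyy ranged from 8.65 to 9.10 for Ppy+ against Ins2+ cells, from 3.38 to 3.95 against Sst+ cells, and from -1.94 to -1.35 for Ppy+Sst+ against Ppy+ cells. Thinned to 1000 UMIs, which leaves fewer molecules, Pyy shares fell to 83.1 and 86.1% in Gcg+ and to 18.5 and 30.3% in Ins2+ cells, and the Npy share of Ins2+ cells of experiment 1 to 0.924%. Npy ratios to the floor of 3 counts were 34.1 to 215 (Sst+) and 35.7 to 68.4 (Ins2+) with an experiment left out. Without the top cells they were 122 and 46.7, an alternative chosen after seeing the data, as was the one with separate denominators.

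Counts of genes called moved more. In the order Ppy+ against Gcg+, Ins2+ and Sst+, Sst+ against Gcg+ and Ins2+, Gcg+ against Ins2+, then Ppy+Gcg+, Ppy+Sst+ and Ppy+Ins2+ against Ppy+, the main counts were 1283, 2724, 1182, 1239, 1618, 2364, 267, 771 and 668. Thinned cells, of which 3768 genes passed the filter, gave 359, 484, 360, 441, 344, 555, 103, 303 and 101. Sums per library gave 438, 1398 and 450 for the first 3, and YFP+ libraries alone 471 for Ppy+Sst+. Without the replicate block no reported call of Pyy or Npy changed, and the counts were 775 (Ppy+ against Gcg+), 741 (against Sst+), 86, 395 and 395 (bihormonal classes, as above), and with DESeq2 784, 127 and 493 for Ppy+ against Gcg+ and for Ppy+Gcg+ and Ppy+Sst+. YFP+ against YFP- libraries had 2735, or 1036 without doublets and non-endocrine clusters, 1690 thinned, 878 without the block and 1512 with DESeq2.

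Bulk numbers do not pair the libraries: deviations of same-numbered γ- and δ-cell libraries correlated at -0.10, 0.07 and -0.27. With the replicate block Pyy was 2.30, and 5383 genes were called against 6268.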
